A study of Homo sapiens with 12 samples.

Results

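The genes described here are 38 genes of homologous recombination and related DNA repair, taken as the rows of both deposited count matrices whose symbols stand in a written list, out of 60708 rows in each matrix. They comprise the BRCA complex, the paralogues RAD51B, RAD51C, RAD51D, XRCC2 and XRCC3, factors of strand invasion, enzymes of end resection and joint molecule processing, the Fanconi anaemia core and ID complexes, mismatch repair, the checkpoint kinases ATM and ATR with their effectors, and polymerase theta. Expression was measured by RNA-seq in HCT116 cells, a wild-type human colorectal carcinoma line in the sample labels and known as deficient in mismatch repair, after 24 h of treatment. Oligomycin A (OA), which blocks the mitochondrial ATP synthase, and tunicamycin (TN), which blocks N-glycosylation and causes stress of the endoplasmic reticulum, were each given to 3 biological replicates and set against 3 DMSO replicates of their own, so that the OA and TN comparisons share no library. The labels give 5 µg/mL for both agents, in RPMI1640 medium with fetal bovine serum, and the paper's methods state another dose for OA.

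In homologous recombination a broken DNA end is trimmed to a single strand, BRCA2 helps to turn that strand into a protein filament, and the strand invades the sister chromatid, from which the missing sequence is copied. The Fanconi pathway uncouples crosslinked strands and hands the break to the same machinery, mismatch repair corrects replication errors, and the ATM and ATR kinases signal damage to the cell cycle. Most of these genes are known to be transcribed chiefly in cells that are entering or passing through S phase, and in proliferating carcinoma lines such as HCT116 they are usually well expressed.

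Depth ran from 9884124 to 24983573 counts on genes over the 12 libraries. Levels are given as CPM, the share of a library's counts on a gene after TMM scaling, always in the order of replicates 1, 2 and 3, and n = 3 in every group. Differences are log2 fold changes of treated against DMSO libraries from the quasi-likelihood test of edgeR, two-sided, and a gene is called where its Benjamini-Hochberg adjusted p over all genes tested is under 0.05. All adjusted p-values below are from edgeR unless DESeq2 is named. All 38 genes passed the filter on low counts in both comparisons. Among markers of the cell line, 6 of 10 colorectal epithelial genes were expressed enough to be tested, with a summed level of 4089 to 8499 CPM per library, whereas the 10 leukocyte markers summed to 0.203 to 1.37 CPM and none of them was tested. The 10 fibroblast and endothelial markers summed to 1.82 to 2.90 CPM in controls of OA and 5.90 to 13.4 CPM in OA-treated cells, without overlap, and to 2.68 to 5.59 and 2.77 to 4.74 CPM around TN. Most of the OA sum was COL1A1, which was not called (2.02, edgeR adjusted p = 0.0723) but was called higher by DESeq2, with GC offsets, with a replicate block and with both of the latter. DCN, LUM and CDH5 had 0 counts in the OA libraries, and the part of these markers in the results was not tested.

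The repair genes that changed were lower in OA-treated and in TN-treated cells. In OA-treated cells 10 of the 38 genes were called lower and 0 were called higher, where 1.72% of all 14681 genes tested were called lower and 2.76% higher. In TN-treated cells 17 were called lower and 0 higher, where 3.34% of all 14432 genes tested were called lower and 3.65% higher. DESeq2 also called 0 of the 38 genes higher with either agent, and at an unadjusted p under 0.05 edgeR had 0 higher with OA and 1 higher with TN, RTEL1. The median log2 fold change of the 38 genes was -1.17 with OA and -1.42 with TN, beside a median over all genes tested of -0.02 and -0.03. In bulk RNA, fewer cells that express a gene and less of its RNA per cell cannot be told apart.

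The summed level of the 38 genes was 1887, 1642 and 1692 CPM in the DMSO libraries of OA and 840.9, 670.1 and 929.7 CPM in the OA libraries. It was 1766, 1935 and 2049 CPM in the DMSO libraries of TN and 783.5, 786.2 and 846.4 CPM in the TN libraries. Every treated library thus held less than every DMSO library, 46.7% of the DMSO mean with OA and 42.0% with TN. Counted gene by gene, 30 of the 38 had all OA libraries below all DMSO libraries, where 15.5% of all genes did, and 0 had them above, where 16.3% did. For TN this held for 27, where 16.8% of all genes did, and 1 gene, RTEL1, had all TN libraries above all DMSO libraries, as did 15.9% of all genes. Within same-numbered pairs, 32 of the 38 were lower in the TN library of each pair, where 33.1% of all genes were.

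**Figure D1:**
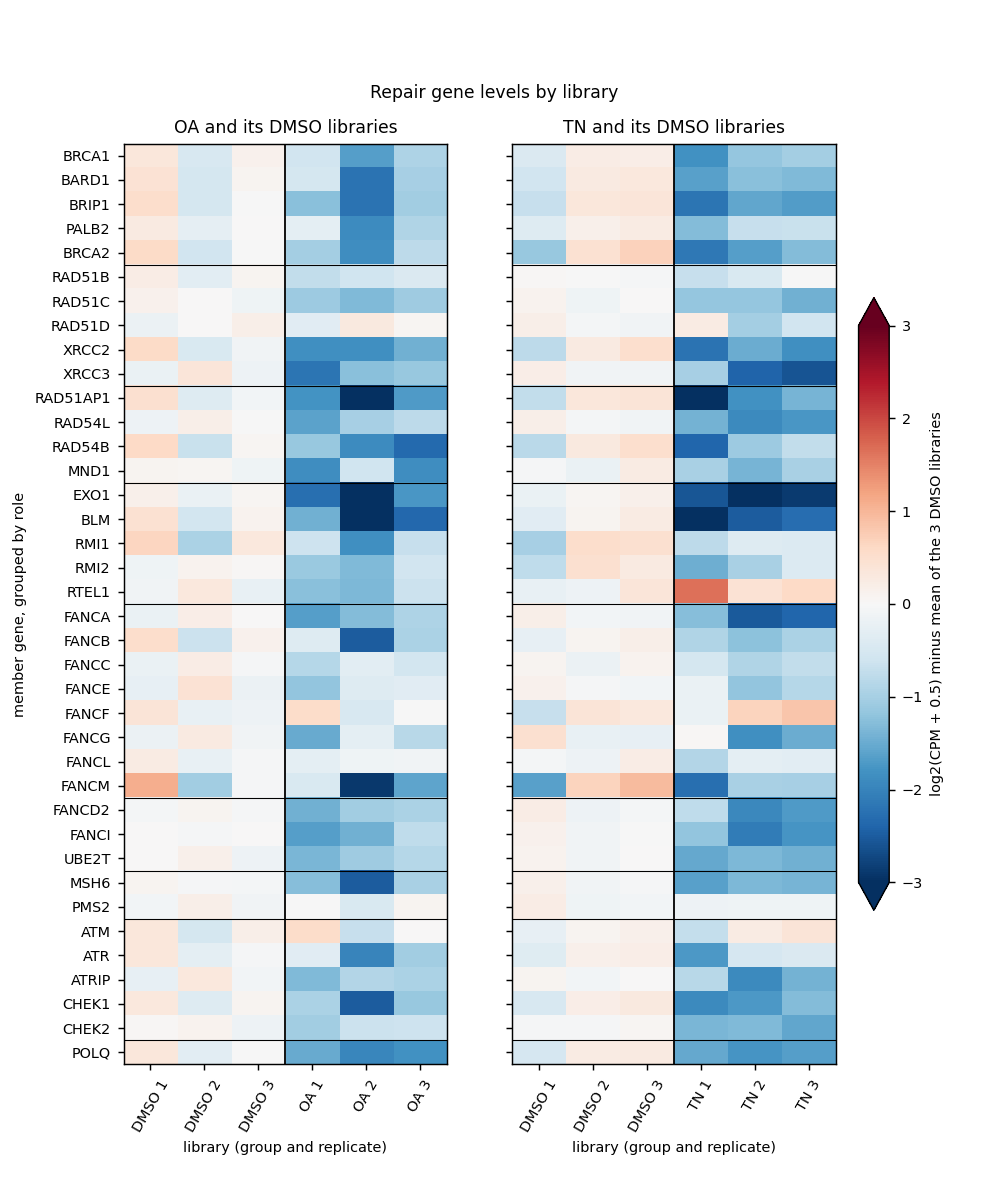
Heat map of the 38 repair genes in each library, with genes in rows grouped by role and libraries in columns, coloured by log2(CPM + 0.5) minus the mean of the 3 DMSO libraries of the same comparison (blue lower, red higher, colours end at 3 in either direction). The treated columns are blue for most genes, with medians of -0.922 to -1.344 in the OA libraries and of -1.285 to -1.293 in the TN libraries, while ATM, PMS2 and FANCF are paler than most and RTEL1 is red with TN.

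The number of genes called moved with single libraries. Without any DMSO library of OA in turn, or without OA replicate 3, the count of genes called lower with OA went from 10 to 0, whereas it was 11 without OA replicate 1 and 12 without OA replicate 2. The count over all genes moved too, from 253 called lower to 0 without any DMSO library, 24 without OA replicate 3, 449 without OA replicate 1 and 367 without OA replicate 2. For TN it was 1 without DMSO replicate 2 or 3, 4 without TN replicate 2 or 3, 13 without DMSO replicate 1 and 23 without TN replicate 1, where over all genes 482 called lower became 84 and 72, 122 and 120, 218 and 1276. The processing moved the OA count as well. It was 17 with DESeq2, and 24 with GC offsets, which remove each library's own dependence of counts on base composition, where 7.57% of all genes tested were called lower. GC offsets added BRCA1, BARD1, BRIP1, RAD54L, RAD54B, BLM, RMI2, RTEL1, FANCC, FANCE, FANCG, MSH6, ATR, ATRIP, CHEK1 and CHEK2 to the genes called lower with OA and dropped FANCI and UBE2T, so that a gene given below as not called with OA is so in the fit without them. Same-numbered TN and DMSO libraries deviated together from their group means, and with the replicate number as a block 29 of the 38 genes were called lower with TN and 0 higher, where 15.3% of all genes tested were called lower and 11.8% higher. The 12 genes called with the block and not in the fit without it are named below with both p-values. Of the 9 alternatives that kept all libraries, 2 of which held the block and 1 of which was DESeq2, XRCC3 was called with TN in 9, FANCD2 in 8, BRCA2 and RAD51AP1 in 6, FANCM in 5, RAD54B, FANCC and FANCE in 4, PALB2 and ATR in 3, and RMI2 and FANCG in the 2 with the block. Over these alternatives, DESeq2 included, their adjusted p with TN lay between 3.88e-05, for XRCC3, and 0.336, for ATR.

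**Figure D2:**
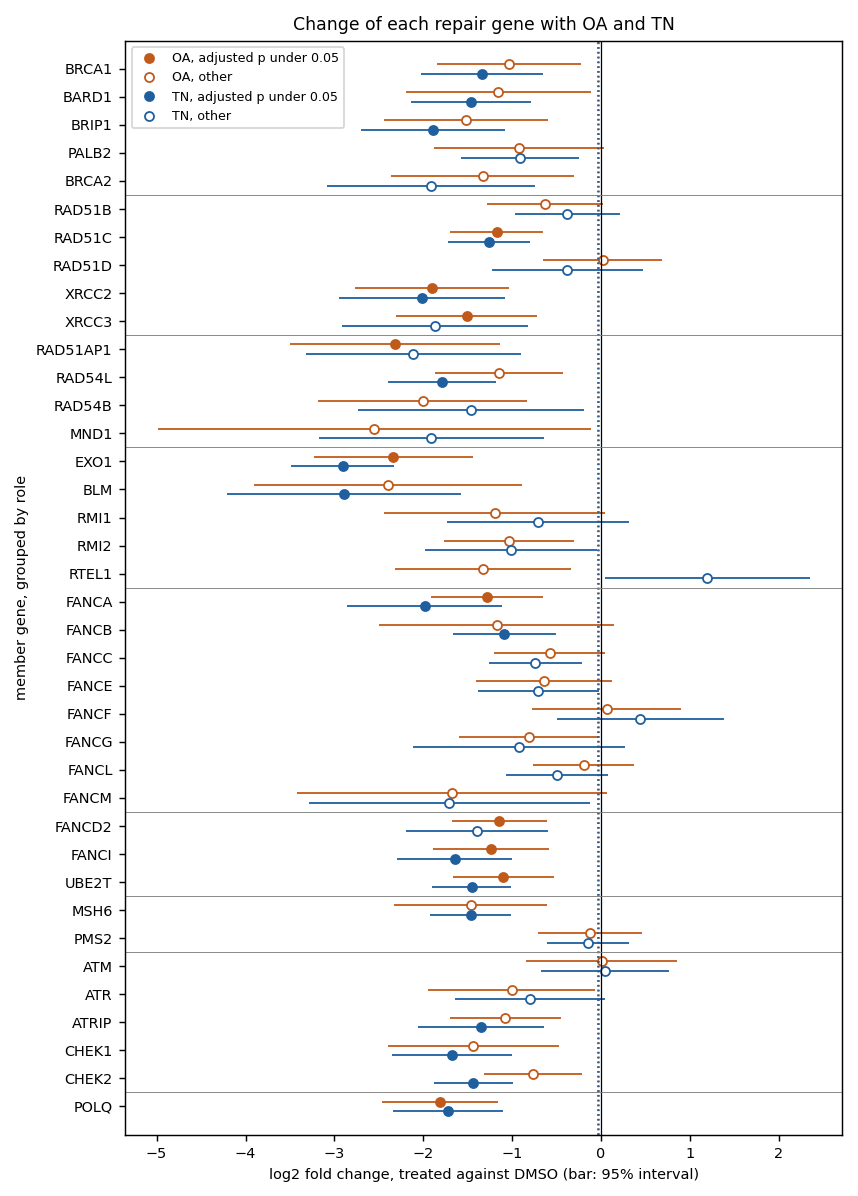
Log2 fold change of each repair gene with OA (orange) and TN (blue) against its DMSO libraries, with 95% intervals as bars and filled points where the edgeR adjusted p is under 0.05. The dotted lines mark the median over all genes tested, at -0.02 and -0.03, and 35 of the 38 points lie below 0 in each comparison, as do 51.2% of all genes with OA and 51.9% with TN.

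Sequence upstream of these genes was looked up because many of them moved in the same direction. RefSeq promoters of build GRCh38.p14, from 250 bases before to 50 bases after the start, were at hand for 35 of the 38 genes, as 53 promoters. RAD54B, RMI2 and FANCI had no entry. Both strands were searched for E2F elements (TTTCCCGC, TTTGGCGC, TTTCGCGC or TTTGCCGC), for the cell cycle homology element CHR (TTTGAA or TTCGAA), and for the CCAAT box. An E2F match stood in 11 of the 53 promoters (20.8%), belonging to 9 genes, and in 3.31% of all 35116 promoters. A CHR match stood in 5 (9.43%) beside 16.4% of all, and CCAAT in 24 (45.3%) beside 34.6% of all. Such a match is a description of the letters and not a site of binding. The windows below run from 120 bases before to 30 bases after the start, 5′ to 3′ on the strand of the gene, with the matches in capitals. EXO1, XRCC2, FANCD2 and MSH6, each called in at least 1 comparison, are shown for an E2F match close to the start, and POLQ for a CHR match there. ATM and PMS2 are shown because they hold a CHR match, or an E2F match with CCAAT, and were not called in either comparison. Genes called in neither, such as MND1 (position 6 from the start) and RMI1 (-32), also held a near E2F match and are not shown. Other promoters of EXO1 and MSH6 held no E2F match, and the other ATM promoter no CHR match.
EXO1, chr1:241848084-241848233, plus strand: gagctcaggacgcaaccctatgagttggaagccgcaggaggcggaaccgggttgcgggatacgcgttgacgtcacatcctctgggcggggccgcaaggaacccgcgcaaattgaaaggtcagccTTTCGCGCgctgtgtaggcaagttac
XRCC2, chr7:152676112-152676261, minus strand: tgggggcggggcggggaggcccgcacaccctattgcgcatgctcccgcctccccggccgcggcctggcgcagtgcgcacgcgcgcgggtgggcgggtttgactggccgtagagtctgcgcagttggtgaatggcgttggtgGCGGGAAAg
FANCD2, chr3:10026317-10026466, plus strand: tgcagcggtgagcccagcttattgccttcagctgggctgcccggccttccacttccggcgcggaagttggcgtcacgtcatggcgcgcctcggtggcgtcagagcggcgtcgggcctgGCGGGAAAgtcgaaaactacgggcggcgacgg
MSH6, chr2:47783025-47783174, plus strand: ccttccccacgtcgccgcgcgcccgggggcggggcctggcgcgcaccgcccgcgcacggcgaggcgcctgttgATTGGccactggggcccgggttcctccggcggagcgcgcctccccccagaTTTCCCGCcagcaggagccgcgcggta
POLQ, chr3:121545959-121546108, minus strand: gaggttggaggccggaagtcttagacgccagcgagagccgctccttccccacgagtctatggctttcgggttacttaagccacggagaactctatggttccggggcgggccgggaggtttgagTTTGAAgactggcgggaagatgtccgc
ATM, chr11:108222947-108223096, plus strand: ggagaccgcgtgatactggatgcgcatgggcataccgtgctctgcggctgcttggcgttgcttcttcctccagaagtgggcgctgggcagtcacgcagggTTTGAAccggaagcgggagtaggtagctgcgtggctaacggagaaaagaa
PMS2, chr7:6009020-6009169, minus strand: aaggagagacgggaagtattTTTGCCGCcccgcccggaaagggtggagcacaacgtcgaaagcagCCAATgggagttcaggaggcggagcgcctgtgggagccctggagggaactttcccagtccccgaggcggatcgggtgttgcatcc

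Among the enzymes that trim DNA ends and resolve joint molecules, EXO1 had the largest fold change of the called genes in both comparisons. This held in edgeR without the block or GC offsets, and RAD51AP1 with OA and BLM with TN followed closely. With GC offsets BLM was called with both agents and fell further (-2.215 with OA and -2.774 with TN) than EXO1 (-2.129 and -2.664). BLM was also called and fell further than EXO1 with the block, with both agents. EXO1, an exonuclease of end resection and mismatch repair (chr1:241847967-241895148 of GRCh38, plus strand), fell to 19.8% of its DMSO mean with OA and to 13.3% with TN. Its DMSO libraries of OA read 92.5, 72.4 and 86.8 CPM and its OA libraries 17, 8.48 and 24.4 CPM. With TN, EXO1 went from 75.3, 89.6 and 95.7 CPM to 14.2, 9.22 and 11.3 CPM. The groups lay far apart in both comparisons, and the ranges of the DMSO libraries of OA and of TN overlapped. Log2 fold changes of EXO1 were -2.33 ± 0.39 (SE, adjusted p = 0.0253) with OA and -2.91 ± 0.25 (SE, adjusted p = 0.00296) with TN in edgeR, and the TN call of EXO1 was the only one among the 38 genes that passed without each of the 6 libraries in turn. The EXO1 promoter shown above holds its E2F match 5 bases after the start, and the other EXO1 promoter held none.

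BLM, the RecQ helicase that dissolves double Holliday junctions, stood at 73.7, 36.4 and 58.4 CPM in the DMSO libraries and 19.5, 2.29 and 10.1 CPM in the OA libraries. TN-treated cells held 2.53, 11.9 and 14.0 CPM of BLM against 55.4, 73.2 and 83.3 CPM in DMSO. All treated libraries were below all DMSO libraries, but OA replicate 2 and TN replicate 1 were much lower than their neighbours. BLM passed with TN, at -2.89 ± 0.57 (SE, adjusted p = 0.027), and not with OA, at -2.39 ± 0.66 (SE, adjusted p = 0.0775), in edgeR. Its partners RMI1 and RMI2, which hold BLM to topoisomerase III alpha, were expressed at lower levels. RMI2 measured 10.4, 12.4 and 11.8 CPM in DMSO and 5.01, 4.29 and 7.57 CPM with OA, without overlap, and 11.3, 27.4 and 23.7 CPM in DMSO and 6.74, 9.68 and 14.5 CPM with TN, where DMSO replicate 1 fell inside the range of the TN libraries. The TN change of RMI2, -1.01 ± 0.41 (SE), was not called without the block (edgeR adjusted p = 0.19) and was called with it (0.0137). RMI1 overlapped between groups in both comparisons, with log2 fold changes of -1.19 and -0.70 that did not pass.

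RTEL1, a helicase that dismantles recombination intermediates and protects telomeres, stood apart from the other genes of the group. It was covered by 59, 108 and 55 counts in DMSO and 15, 10 and 19 counts in OA libraries, or 3.09, 4.27 and 2.80 CPM and 1.11, 0.998 and 1.97 CPM. For TN the values were 21, 22 and 27 counts in DMSO and 53, 23 and 28 counts in TN libraries, or 1.15, 1.25 and 2.00 CPM and 5.58, 2.12 and 2.4 CPM. RTEL1 was therefore lower without overlap in OA-treated cells and higher without overlap in TN-treated cells, where TN replicate 1 was far above the others. Neither change passed the test by itself, at -1.32 ± 0.43 (SE, adjusted p = 0.117) and 1.2 ± 0.49 (SE, adjusted p = 0.193) in edgeR. The gene is covered by few reads, and 52.9% of its exon bases are shared with the readthrough gene RTEL1-TNFRSF6B on the same strand, so that its level is uncertain.

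The paralogues RAD51B, RAD51C, RAD51D, XRCC2 and XRCC3, which help to start and steady strand exchange, did not move as one. RAD51C, the member shared by both paralogue complexes, was the steadiest of them. It read 84.8, 79.0 and 71.0 CPM in DMSO and 36.1, 30.7 and 37.2 CPM in OA libraries, and 98.6, 82.8 and 92.0 CPM in DMSO and 40.2, 40.7 and 33.2 CPM in TN libraries. Replicates of RAD51C were close in all groups, and 44.3% of the DMSO level was left with OA and 41.7% with TN. RAD51C was called in both comparisons, at -1.17 ± 0.23 (SE, adjusted p = 0.0351) with OA and -1.26 ± 0.20 (SE, adjusted p = 0.013) with TN in edgeR.

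XRCC2 fell further, to 26.7% of its DMSO level with OA and 24.7% with TN. OA-treated cells held 3.10, 3.09 and 4.25 CPM of XRCC2 against 18.7, 8.89 and 11.4 CPM in DMSO, and TN-treated cells 3.90, 6.73 and 5.15 CPM against 11.4, 24.1 and 28.3 CPM. The DMSO libraries of XRCC2 were scattered, and still no treated library reached the lowest of them. The fold changes of XRCC2 were -1.90 ± 0.38 (SE, adjusted p = 0.0359) and -2.01 ± 0.40 (SE, adjusted p = 0.0283) in edgeR. XRCC3, the partner of RAD51C in the second complex, dropped from 52.1, 77.5 and 53.6 CPM to 12.8, 24.8 and 26.9 CPM with OA. In the TN comparison XRCC3 had 53.9, 43.7 and 43.4 CPM in DMSO and 23.1, 8.39 and 7.30 CPM in TN libraries. It was called with OA, at -1.51 ± 0.34 (SE, adjusted p = 0.0495), and with TN, at -1.87 ± 0.45 (SE), with the replicate block and not without it (edgeR adjusted p = 0.0513 without and 0.00157 with it). Since 76.7% of the exon bases of XRCC3 overlap KLC1 on the other strand and the strand setting of the counts is not stated, its count may include reads of KLC1 or lack reads of its own.

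RAD51B and RAD51D were called in neither comparison. RAD51B gave 16.6, 11.1 and 15.0 CPM and 8.19, 9.18 and 10.3 CPM around OA, and its log2 fold changes were -0.63 with OA and -0.38 with TN. RAD51D gave 9.33, 10.7 and 12 CPM in DMSO and 8.26, 13.2 and 11.1 CPM with OA, fully overlapping, at 0.02 with a 95% interval of -0.65 to 0.69. For TN the RAD51D interval ran from -1.23 to 0.47. A fall of RAD51D as large as the median of the 38 genes lies outside both intervals.

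The BRCA complex, which prepares the resected end for strand invasion, was lower throughout, and 3 of its 5 genes were called with TN and 0 with OA. With OA, BRCA1, BARD1, BRIP1 and BRCA2 had an unadjusted p under 0.05 in edgeR, DESeq2 called 1 of the 5, BRIP1, and GC offsets called 3, BRCA1, BARD1 and BRIP1. BRCA1, the ubiquitin ligase that promotes end resection, read 65.1, 36.5 and 55.9 CPM in DMSO and 34.0, 16.0 and 26.6 CPM in OA libraries. In the TN comparison BRCA1 read 45.0, 70.7 and 69.8 CPM and 17, 26.7 and 29.5 CPM. Every treated library of BRCA1 was lower than every DMSO library. The change was -1.04 ± 0.35 (SE, adjusted p = 0.128) with OA and -1.34 ± 0.30 (SE, adjusted p = 0.0394) with TN in edgeR, and scaling to library totals ended the TN call, at an adjusted p of 0.0542 (range 9.56e-05 to 0.0542 over the 9 alternatives, DESeq2 included). Over these alternatives the log2 fold change of BRCA1 with TN stayed between -1.47 and -1.17.

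BARD1, the obligate partner of BRCA1, had 52.9, 26.9 and 40.9 CPM in DMSO and 26.7, 7.98 and 19.3 CPM with OA, and 37.8, 67.5 and 70.0 CPM in DMSO and 17.9, 23.3 and 22.2 CPM with TN. Its OA replicate 2 was far below replicates 1 and 3, and neither comparison overlapped. BARD1 reached -1.47 ± 0.29 (SE, adjusted p = 0.0274) with TN and -1.16 ± 0.45 (SE, adjusted p = 0.175) with OA in edgeR. The TN call of BARD1 was lost in a single fit of all 12 libraries (edgeR adjusted p = 0.0568, range 0.000554 to 0.0568 over the 9 alternatives, DESeq2 included). BRIP1, a helicase that binds BRCA1, had 60.5, 28.8 and 41.7 CPM in DMSO and 17.3, 8.58 and 19.9 CPM with OA, and 36.8, 75.3 and 77.5 CPM in DMSO and 12.8, 20 and 18.4 CPM with TN. It showed no overlap, and it fell by the most of the called genes of this complex, -1.89 ± 0.35 (SE, adjusted p = 0.0223) with TN in edgeR, while its OA value was -1.51 ± 0.40 (SE, adjusted p = 0.0716).

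PALB2, the bridge between BRCA1 and BRCA2, measured 27.9, 18.9 and 23.2 CPM and 18.8, 5.89 and 12 CPM around OA. Around TN it measured 19.7, 28.8 and 30.6 CPM and 10.2, 15.8 and 16.1 CPM. The closest libraries of PALB2 nearly touched, 18.9 CPM in DMSO replicate 2 and 18.8 CPM in OA replicate 1. BRCA2, which directs the assembly of the invading filament, was scarce for its length and varied widely, at 13.7, 5.85 and 8.90 CPM in DMSO and 4.20, 2.10 and 4.98 CPM with OA. The TN comparison gave 10.2, 31.7 and 37.4 CPM and 4.85, 7.01 and 9.10 CPM for BRCA2. DMSO replicate 1 of TN was far below the other DMSO libraries, yet still above all TN libraries. PALB2 and BRCA2 had TN changes of -0.91 ± 0.28 (SE) and -1.91 ± 0.50 (SE), with edgeR adjusted p = 0.102 and 0.0638 without the replicate block and 0.00615 and 0.0019 with it. Their OA changes were -0.93 ± 0.42 (SE, adjusted p = 0.228) and -1.33 ± 0.45 (SE, adjusted p = 0.126) in edgeR.

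Among the factors of strand invasion, RAD51AP1, which stimulates strand invasion, read 19.6, 10.6 and 13.1 CPM in DMSO and 3.69, 0.998 and 3.94 CPM with OA. Around TN, RAD51AP1 read 13.5, 29.1 and 30.3 CPM and 2.21, 6.18 and 8.41 CPM. OA replicate 2 and TN replicate 1 were the lowest, and the groups did not overlap. RAD51AP1 was called with OA, at -2.32 ± 0.51 (SE, adjusted p = 0.0466), and with TN, at -2.11 ± 0.52 (SE), with the block and not without it (edgeR adjusted p = 0.0543 without and 0.000473 with it). Scaling to library totals moved its OA value to an edgeR adjusted p of 0.0768, within a range of 0.000346 to 0.0768 over the 9 alternatives, DESeq2 included.

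RAD54L, a DNA translocase that drives strand exchange, stood at 15.9, 20.1 and 17.8 CPM in DMSO and 5.53, 8.68 and 10.2 CPM with OA. TN libraries had 5.69, 3.87 and 4.38 CPM of RAD54L against 18.1, 15.2 and 14.7 CPM in DMSO. The TN replicates were close together and all far below DMSO. RAD54L was called with TN, -1.78 ± 0.26 (SE, adjusted p = 0.0104), and not with OA, -1.15 ± 0.31 (SE, adjusted p = 0.0765), in edgeR. Its relative RAD54B had 11.2, 4.39 and 7.58 CPM and 3.02, 1.6 and 1.04 CPM around OA, and 4.76, 10.7 and 12.5 CPM and 1.26, 3.78 and 4.98 CPM around TN, where the groups overlapped by a narrow margin. RAD54B was called with TN with the block and not without it (-1.47 ± 0.55 (SE), edgeR adjusted p = 0.153 without and 0.00439 with it), and 66.0% of its exon bases are shared with FSBP on the same strand. MND1, an accessory factor best known from meiosis, was close to absent, with 27, 35 and 23 counts in DMSO and 0, 7 and 0 counts in OA libraries, and its changes of -2.55 and -1.91 were not called.

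The Fanconi ID complex and the enzyme that ubiquitinates it were all called with OA, and 2 of these 3 genes with TN. FANCD2, which with FANCI is ubiquitinated and clamps onto DNA at a crosslink, had 118, 129 and 119 CPM in DMSO and 44.5, 58.6 and 62.6 CPM with OA. With TN, FANCD2 had 67.3, 29.3 and 34.5 CPM against 133, 102 and 109 CPM in DMSO. FANCD2 did not overlap in either comparison, and TN replicate 1 was well above replicates 2 and 3. It was called with OA, -1.14 ± 0.23 (SE, adjusted p = 0.0392), and with TN, -1.39 ± 0.34 (SE), with the block and not without it (edgeR adjusted p = 0.0533 without and 0.00147 with it). FANCD2 has pseudogene copies, so its count may include or lack reads of those.

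FANCI showed almost equal DMSO libraries of 168, 163 and 169 CPM and OA libraries of 52.6, 60.9 and 98.4 CPM. In the TN comparison FANCI had 185, 158 and 169 CPM in DMSO and 75.1, 39.2 and 49.2 CPM with TN. The highest treated library, OA replicate 3, was still well under every DMSO library. FANCI was called in both comparisons, -1.24 ± 0.28 (SE, adjusted p = 0.0498) and -1.64 ± 0.28 (SE, adjusted p = 0.0167) in edgeR. UBE2T, the ubiquitin-conjugating enzyme of the pathway, read 77.3, 84.8 and 68.5 CPM in DMSO and 29.3, 36.1 and 42.3 CPM with OA, and 92.2, 78.5 and 85.2 CPM in DMSO and 29.0, 33.2 and 31.2 CPM with TN. Its TN libraries were close together, and it was called in both comparisons, -1.10 ± 0.25 (SE, adjusted p = 0.0471) and -1.45 ± 0.19 (SE, adjusted p = 0.00773) in edgeR. GC offsets ended the OA calls of FANCI (edgeR adjusted p = 0.0804, range 0.00299 to 0.0804 over the 9 alternatives, DESeq2 included) and UBE2T (0.311, range 0.00447 to 0.311).

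**Figure D3:**
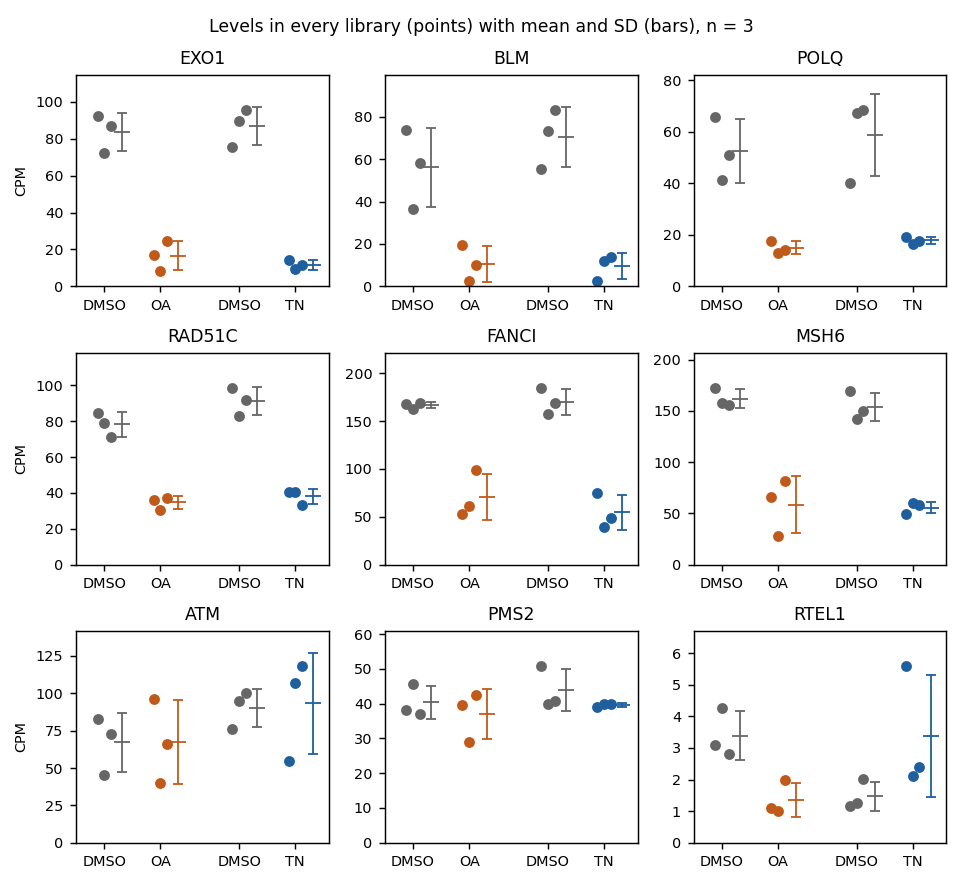
CPM of 9 repair genes in every library (points, grey for DMSO, orange for OA, blue for TN), with the mean and SD of the 3 libraries as bars beside them and each axis starting at 0. EXO1, BLM, POLQ, RAD51C, FANCI and MSH6 separate fully from DMSO with both agents, ATM and PMS2 overlap DMSO, and RTEL1 lies below DMSO with OA and above it with TN.

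In the Fanconi core complex, the ubiquitin ligase that acts on FANCD2 and FANCI, 1 of 8 genes was called with OA and 2 with TN. FANCA, a scaffold subunit, had 64.0, 84.7 and 74.5 CPM in DMSO and 23.3, 29.9 and 38.9 CPM with OA. It had 69.4, 57.3 and 56.8 CPM in DMSO and 25.0, 10.1 and 11.3 CPM with TN. FANCA was separated in both comparisons, and TN replicate 1 was above replicates 2 and 3. FANCA was called with OA, -1.28 ± 0.28 (SE, adjusted p = 0.0428), and with TN, -1.98 ± 0.37 (SE, adjusted p = 0.024), in edgeR. Of its exon bases 19.6% overlap ZNF276 on the other strand. FANCB, a subunit of the catalytic module, had 16.4, 6.96 and 12.3 CPM and 8.48, 1.6 and 5.60 CPM around OA, with overlap. Around TN it had 12, 15.3 and 16.3 CPM and 7.48, 5.81 and 7.21 CPM, without overlap. FANCB was called with TN, -1.09 ± 0.25 (SE, adjusted p = 0.0433) in edgeR, and GC offsets (adjusted p = 0.331) or a single fit of all 12 libraries (0.202) ended that call, within a range of 0.0101 to 0.331 over the 9 alternatives, DESeq2 included.

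The core genes FANCC, FANCE, FANCG and FANCM were called with TN with the replicate block and not in the fit without it. FANCC had 20.9, 28.1 and 23.4 CPM and 13.1, 19.3 and 16.3 CPM around OA, and 23.2, 19.4 and 23.7 CPM and 15.2, 11.6 and 13.0 CPM around TN, a modest separation without overlap. FANCE had 28.7, 47.0 and 30.1 CPM and 14.8, 26.1 and 26.9 CPM around OA, and 30.0, 26.4 and 25.7 CPM and 23.8, 11.8 and 14.8 CPM around TN, again without overlap. FANCG had 58.5, 80.5 and 61.7 CPM and 23.0, 54.4 and 37.0 CPM around OA, and 73.6, 44.5 and 43.7 CPM and 53.3, 14.2 and 18.2 CPM around TN. The TN libraries of FANCG overlapped DMSO because replicate 1 was high in both groups. FANCM, the translocase that anchors the complex on DNA, had 21.7, 4.54 and 9.61 CPM and 7.15, 0.898 and 3.01 CPM around OA, and 5.97, 31.4 and 38.5 CPM and 3.69, 9.77 and 9.62 CPM around TN. FANCM varied more between DMSO replicates, relative to its mean, than any other of the 38 genes and overlapped in both comparisons. The edgeR adjusted p of the TN change of FANCC (-0.74) was 0.0921 without and 0.017 with the block. For FANCE (-0.70) it was 0.196 and 0.0276. For FANCG (-0.92) it was 0.322 and 0.0104, and for FANCM (-1.71) 0.176 and 0.00474 in edgeR.

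FANCL, the catalytic subunit of the core complex, and FANCF, an adaptor, were called in neither comparison. FANCL had 36.9, 26.1 and 30.2 CPM in DMSO and 24.9, 28.2 and 28.5 CPM with OA, at a log2 fold change of -0.19 (95% interval -0.76 to 0.38), and -0.49 with TN. Around TN, FANCL had 35.8, 33.4 and 43.4 CPM in DMSO and 19.9, 30.2 and 29.7 CPM with TN, without overlap. The edgeR adjusted p of that change with the block was 0.0727. FANCF had 5.86, 12.9 and 12.2 CPM in DMSO and 8.43, 15.9 and 17.7 CPM with TN, at 0.44 (-0.50 to 1.38), and 0.07 with OA. In each same-numbered TN pair FANCF was higher in the treated library, and the fit with the block and GC offsets together called it higher, as 18.2% of all genes (edgeR adjusted p = 0.026, range 0.026 to 0.719 over the 9 alternatives, DESeq2 included).

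The mismatch repair genes parted. MSH6, which recognises mismatched bases, was among the most abundant of the 38 genes, with 172, 157 and 156 CPM in DMSO and 66.0, 28.1 and 81.6 CPM in OA libraries. With TN, MSH6 had 49.6, 59.7 and 57.8 CPM against 169, 142 and 149.9 CPM in DMSO. OA replicate 2 was the lowest library by a wide margin, while the TN replicates were close. MSH6 was called with TN, -1.47 ± 0.20 (SE, adjusted p = 0.00783), and not with OA, -1.47 ± 0.38 (SE, adjusted p = 0.0657), in edgeR, although the mean left was 36.2% with both agents. PMS2, the endonuclease subunit that acts after mismatch recognition, had 38.2, 45.7 and 37.1 CPM and 39.6, 28.9 and 42.4 CPM around OA. It had 50.8, 39.9 and 40.8 CPM and 39.1, 39.8 and 40.0 CPM around TN. The PMS2 groups overlapped, its 95% intervals were -0.71 to 0.46 with OA and -0.60 to 0.31 with TN, and both leave out a change as large as the median of the 38 genes. PMS2 has pseudogene copies, so its reads are uncertain.

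The checkpoint kinases and their partners also parted. ATM, the kinase that responds to double-strand breaks, had 83.0, 45.3 and 73.1 CPM in DMSO and 96.2, 40.1 and 65.8 CPM with OA. With TN, ATM had 54.8, 107 and 118 CPM against 75.8, 94.6 and 100.4 CPM in DMSO. The ATM libraries interleaved in both comparisons, at 0.01 (-0.84 to 0.86) and 0.05 (-0.68 to 0.77), and the sign of these small values turned with the processing. ATR, the kinase that responds to stalled forks, had 112, 72.5 and 85.8 CPM and 69.9, 22.1 and 42.5 CPM around OA. Around TN, ATR had 86.2, 123 and 126 CPM and 33.3, 77.8 and 81.9 CPM. It did not overlap in either, and it was called with TN with the block and not without it (-0.80 ± 0.36 (SE), edgeR adjusted p = 0.23 without and 0.0111 with it).

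ATRIP, which carries ATR to single-stranded DNA, had 33.5, 49.6 and 37.5 CPM in DMSO and 15.6, 21.4 and 20.3 CPM with OA. With TN, ATRIP had 19.9, 9.13 and 13.2 CPM against 37.8, 33.9 and 36.1 CPM in DMSO. The groups were apart in both, with -1.08 ± 0.27 (SE, adjusted p = 0.0643) and -1.35 ± 0.30 (SE, adjusted p = 0.0417) in edgeR, and 26.7% of the exon bases of ATRIP are shared with TREX1 on the same strand. CHEK1, the effector of ATR, had 65.7, 40.1 and 55.6 CPM in DMSO and 27.0, 8.98 and 23.6 CPM with OA. With TN, CHEK1 had 18.2, 21.1 and 28.4 CPM against 50.2, 80.7 and 85.8 CPM in DMSO. CHEK1 separated fully in both comparisons and was called with TN, -1.68 ± 0.29 (SE, adjusted p = 0.018), and not with OA, -1.44 ± 0.42 (SE, adjusted p = 0.0911), in edgeR. CHEK2, the effector of ATM, had 55.0, 58.0 and 48.7 CPM in DMSO and 25.9, 34.4 and 35.0 CPM with OA. With TN, CHEK2 had 23.9, 24.9 and 21.1 CPM against 62.0, 62.0 and 65.5 CPM in DMSO. Replicates of CHEK2 were close in all groups, and it fell to 36.9% with TN, -1.44 ± 0.19 (SE, adjusted p = 0.00783), where the OA value of -0.76 ± 0.24 (SE, adjusted p = 0.11) did not pass in edgeR. CHEK2 too has pseudogene copies.

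POLQ, the polymerase of theta-mediated end joining, an error-prone route that serves when recombination fails, had the lowest p of the 38 genes with OA. Its levels were 65.8, 41.1 and 50.8 CPM in DMSO and 17.7, 12.9 and 14.2 CPM in OA libraries. For TN they were 40.2, 67.2 and 68.5 CPM in DMSO and 19.3, 16.4 and 17.7 CPM. The treated libraries of POLQ were tightly grouped and far below the more scattered DMSO libraries. POLQ was called with both agents, -1.81 ± 0.28 (SE, adjusted p = 0.0221) with OA and -1.72 ± 0.27 (SE, adjusted p = 0.0122) with TN in edgeR.

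Levels of different genes were compared per kilobase of the canonical transcript in Gencode 44. UBE2T stood highest in DMSO, at 87.6 CPM per kilobase in the libraries of OA and 97.1 in those of TN, followed by MSH6 (37.9 and 36.1) and FANCI (35.2 and 36.0). RAD51C (30.6 and 35.6) and CHEK2 (29.2 and 34.3) came next. In the DMSO libraries of OA, MSH6, FANCI and RAD51C lay in this order without overlap, and CHEK2 overlapped RAD51C, whereas in the DMSO libraries of TN the 4 genes overlapped and their order was not resolved. At the other end were RTEL1 (0.734 and 0.318), BRCA2 (0.793 and 2.21), RAD51D (1.07 and 1.17) and MND1 (1.42 and 1.43), again in CPM per kilobase.

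The responses to OA and TN were compared directly in a contrast over all 12 libraries. For 0 of the 38 genes did the changes differ at an edgeR adjusted p under 0.05, as for 0 of all 15429 genes tested (0%), and DESeq2 also called 0 of the 38. At an unadjusted p under 0.05, 2 of the 38 differed, RTEL1 and CHEK2, where 348 of all genes did (2.26%). The RTEL1 change was lower with OA by -2.57 ± 0.62 (SE, unadjusted p = 0.00138, edgeR adjusted p = 1.0). The CHEK2 change was 0.59 ± 0.26 (SE, unadjusted p = 0.0429, edgeR adjusted p = 1.0), that is a larger fall with TN. Over the 38 genes the OA change minus the TN change had a median of 0.04 on the log2 scale, with 21 positive and 17 negative values, and standard errors of 0.26 to 1.26.

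Other genes of repair, replication and mitosis were set beside the 38. Over all genes with OA, DESeq2 called 677 of 16318 lower and 953 higher. GC offsets called 7.57% lower and 8.51% higher with OA, and the block 15% and 11.7%. With TN the block called 15.3% of all genes lower and 11.8% higher, and DESeq2 called 868 of 15616 lower. Of 33 further genes of homologous recombination, 3 were called lower with OA and 7 with TN (17 with the block, which also called 3 higher; with OA, DESeq2 called 9 lower and 3 higher and GC offsets 9 lower and 5 higher), with medians of -0.62 and -0.71. Among them EME1, a subunit of a structure-specific nuclease, fell by 1.62 with OA and by 2.03 with TN on the log2 scale, RPA3, a subunit of the single-strand binding protein, fell by 1.3 with OA and 1.15 with TN, and MCM8, a helicase of recombination, fell by 2.10 with TN. Others of the 33 rose. All OA libraries lay below all DMSO libraries for 12 and above for 6, where 15.5% and 16.3% of all genes did. With TN 13 lay below and 3 above, where 16.8% and 15.9% of all genes did. The block called 16 lower and 5 higher with OA. Of 14 further Fanconi and crosslink genes 1 was called lower with each agent, CENPX (-1.67) with OA and the ubiquitin ligase RFWD3 (-1.34) with TN. With OA, DESeq2 and GC offsets each called 3 lower and 1 higher, and with TN the block called 4 lower and 1 higher. Of 4 further mismatch repair genes DESeq2 and edgeR without the block or GC offsets called 0 with either agent. In that edgeR fit 1 had an unadjusted p under 0.05 with OA and 0 with TN. The block and GC offsets together called MSH3 higher with TN (edgeR adjusted p = 0.0475), as 18.2% of all genes.

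Of 16 further checkpoint genes 2 were called lower with OA (8 with DESeq2 and 7 with GC offsets) and 4 with TN (10 with the block). They included CLSPN, the adaptor of CHEK1, at -2.37 and -2.44, and CDC25A, the phosphatase that CHEK1 restrains, at -1.98 and -2.80. The list medians were -0.955 and -1.09. Of 14 non-homologous end joining genes 0 passed with OA in edgeR without the block or GC offsets. In that fit 3 had an unadjusted p under 0.05, as did 3415 of all 14681 genes tested. DESeq2 called 1 of the 14 lower with OA, GC offsets 3 and the block 6. With TN 2 passed (4 with the block), PRKDC (-0.88) and XRCC5 (-0.94), and the list medians were -0.63 and -0.45. Of 20 base excision repair genes 1 was called lower with OA (4 with DESeq2 and 6 with GC offsets) and 3 with TN (7 with the block). They included UNG, the uracil glycosylase, at -1.43 and -1.39, and the list medians were -0.24 and -0.46. Of 21 nucleotide excision repair genes tested 1 was called lower with OA, LIG1 (-1.51), and 0 with TN in edgeR without the block or GC offsets. With TN 2 had an unadjusted p under 0.05 in that fit, as did 3504 of all 14432 genes tested. DESeq2 called 1 with TN, and the block called 3 lower (14.3%) and 1 higher, where it called 15.3% of all genes lower and 11.8% higher. The list medians were -0.23 and -0.08. These lists were not tested against the 38 genes.

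Replication and mitosis genes moved with the repair genes. Of 34 S-phase replication genes 24 were called lower with OA and 28 with TN (34 with the block), with medians of -1.68 and -2.05. Their summed level was 5788, 6832 and 6006 CPM in DMSO and 1645, 1691 and 2437 CPM with OA, and 6697, 5223 and 5357 CPM in DMSO and 1996, 1042 and 1198 CPM with TN. RRM2, the small subunit of ribonucleotide reductase, fell by 2.06 with OA and the helicase subunit MCM4 by 3.00 with TN on the log2 scale. Of 22 mitosis genes 3 were called lower with OA (17 with DESeq2 and 17 with GC offsets) and 13 with TN (22 with the block), with medians of -1.53 and -1.70. Their summed level was 2839, 2400 and 2424 CPM in DMSO and 974, 957.3 and 1102 CPM with OA, and 2812, 2829 and 2962 CPM in DMSO and 1128, 739 and 784.9 CPM with TN. BUB1B, a kinase-like component of the spindle checkpoint, fell by 1.61 with OA and 1.98 with TN on the log2 scale. Each treated library was thus below each DMSO library in both sums, as in the sum of the 38 repair genes, and the part of these lists in the fall of the repair genes was not tested.

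**Figure D4:**
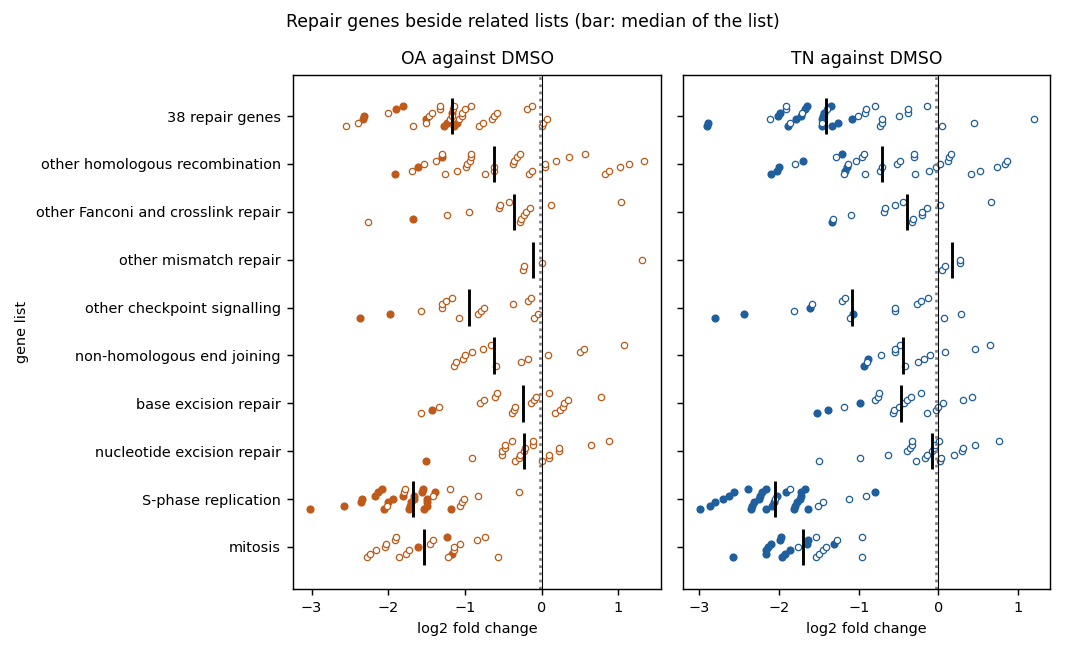
Log2 fold changes of the 38 repair genes and of 9 related gene lists with OA (left) and TN (right), with 1 point per gene, filled where the edgeR adjusted p is under 0.05, and a black bar at the median of each list. The dotted line is the median of all genes tested. The medians of the repair genes, -1.17 and -1.42, lie between those of the other repair lists and those of the S-phase genes, -1.68 and -2.05.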

How the data were processed

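RNA-seq libraries of HCT116 cells treated with OA, TN or DMSO were grouped by the treatment and replicate number in the sample labels. The authors aligned reads to hg38 with STAR 2.7.9, counted them per gene with Gencode 32 and deposited raw counts, unscaled and not pooled. The strand setting of the counting is not given in the sources used here, and the labels name a stranded total RNA kit where the paper speaks of mRNA-seq. The deposited tables also hold the authors' DESeq2 1.30.1 results (mean level, log2 fold change, standard error, statistic, p-value and adjusted p-value), which were not used. Every per-sample column was assigned to a library.

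Genes that passed filterByExpr were tested on TMM-scaled counts with edgeR 4.0.16 (quasi-likelihood, two-sided, R 4.3.3), for OA and TN separately without a replicate term and for their difference over all 12 libraries, with Benjamini-Hochberg adjustment over all genes tested and a threshold of 0.05. Precision was limited by 3 libraries per group and depths of 9884124 to 24983573 counts. The 38 genes, the related lists, the tests and the alternatives were chosen with earlier results of these data known, so no test was run on a list as a whole. Genes were named by a rule: all 38 genes, with values in every library for those called in either comparison or, with TN, under the replicate block, and at most the 3 called genes of lowest p from each related list. From the related lists, 2 genes were left out and are not reported here. RAD51B, RAD51D, MND1, RTEL1, FANCF, FANCL, PMS2 and ATM were given values as well, after their values were seen.

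Same-numbered libraries were checked for shared deviations from their group means, across genes. The correlations were 0.64, 0.41 and 0.43 for TN, taken as pairing, and 0.62, 0.54 and 0.09 for OA, not taken as pairing. DMSO replicate 3 of TN correlated as well with TN replicate 2 (0.44), and DMSO replicate 2 with TN replicate 3 at 0.38, so that numbers 2 and 3 are not told apart. The pairing rests on the replicate numbers of the labels and the check alone. Alternatives were DESeq2 1.42.0, its size factors, library totals, GC offsets (a loess curve of span 0.3 per library against transcript GC content, over genes with a mean count of at least 20), the replicate number as a block, a joint fit of the 12 libraries, a minimum of 10 counts in every library or no minimum, and fits that left out each library. Exon sharing, transcript lengths and GC content came from Gencode 44, promoters from RefSeq (GRCh38.p14). On simulated counts with the real means, the test called 37 of 100 genes changed 4-fold and 2 of 100 changed 2-fold for OA (14681 genes), and 52 of 100 and 5 of 100 for TN (14432 genes). No other gene was changed in the simulation. In the data 3415 genes with OA and 3504 with TN had an unadjusted p under 0.05 in edgeR, so this recovery need not carry over.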

Additional observations from a re-analysis of the deposited data

Results flagged for a closer look

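RTEL1, a helicase of recombination and telomere maintenance, was singled out because its 2 comparisons went in opposite directions. All 3 OA libraries (1.11, 0.998 and 1.97 CPM) lay below the DMSO mean of 3.39 CPM, and all 3 TN libraries (5.58, 2.12 and 2.4 CPM) lay above the DMSO mean of 1.47 CPM. The OA change minus the TN change was -2.567 on the log2 scale, with a 95% interval of -3.92 to -1.21. In edgeR the unadjusted p of this difference was 0.00138 and its adjusted p 1.0, and with the replicate block 0.00463 and 0.921, so it did not pass the correction over 15429 genes. The DMSO libraries of OA and TN also differed from each other in RTEL1, at 2.80 to 4.27 CPM and 1.15 to 2.00 CPM. The difference ranged from -1.95 without TN replicate 1 to -2.87 without OA replicate 3 when each library was left out in turn, and its adjusted p stayed at 0.888 or above.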

How the results depend on the processing

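The median change of the 38 repair genes was negative in every fit run. Leaving out each library in turn gave medians of -1.07 to -1.28 with OA and -1.29 to -1.45 with TN. For OA, all other settings gave medians of -0.997 to -1.35. For TN the median moved by more than the spread of the replicates with library totals (-1.58), GC offsets (-1.20) and the block with GC offsets (-1.20), and by less under the others. Library totals shifted the median of all genes to -0.23 for OA and -0.18 for TN, and gave 352 higher and 396 lower genes in all for OA, beside 405 and 253, and 529 and 875 for TN, beside 527 and 482.

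The count of the 38 genes called lower with OA, 10, became 17 with DESeq2 (where 677 of 16318 genes were called lower, beside 253 of 14681), 17 without a low-count filter (684 of 28468), 18 in 1 fit of all 12 libraries (788 of 15429), 24 with GC offsets (where 7.57% of all genes were called lower), 29 with a replicate block (15%) and 28 with the block and GC offsets (12.8%). The OA numbers were not taken as pairing, since the correlation was 0.09 for replicate 3 and DMSO replicate 3 correlated better with OA replicate 1 (0.15). Replicates 1 and 2 of OA did correlate with their same-numbered DMSO libraries (0.62 and 0.54), and the block moved the count. Whether the OA libraries were paired is therefore not settled. The count with TN, 17, became 26 with GC offsets (10.5%), 29 with the paired replicate block and 29 with the block and GC offsets (19%), which also called 1 gene higher, FANCF. Leaving out 1 library gave counts of 0 to 12 with OA and of 1 to 23 with TN. Of the 38 differences between OA and TN, 0 were called in any fit run, where over all genes 22 higher and 3 lower were called without a low-count filter, 4 without OA replicate 2 and 0 in the others.

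Small changes turned sign. With OA, RAD51D went to -0.22 with library totals, -0.004 without a filter, -0.069 in the fit of all 12 libraries, -0.03 with GC offsets, -0.036 with the block and GC offsets, and -0.16 to 0.17 without single libraries. ATM went to -0.13 with library totals, -0.004 with at least 10 counts in every library, -0.036 with the block, -0.031 in the fit of all 12 libraries, and -0.36 to 0.29 without single libraries. FANCF went to -0.075 with library totals and -0.28 to 0.35 without single libraries, PMS2 to -0.243 to 0.026 without single libraries, and FANCL to 0.57 with GC offsets and 0.45 with the block and GC offsets. With TN, ATM went to -0.061 with library totals, -0.017 with the block, and -0.17 to 0.37 without single libraries. The cause of these moves was not tested. At least 10 counts in every library left 36 of the 38 genes for OA and 37 for TN. RTEL1 and MND1 rest on few counts, and every group on 3 libraries.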

Other observations

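By their median, the 38 repair genes were poorer in G and C than all genes tested, though some, such as RTEL1 (62.5%) and ATRIP (58.6%), were richer. The GC content of their longest transcripts had a median of 42.0%, from 33.1% in FANCL to 63.8% in XRCC3, where the median of all genes tested was 48.2% in the OA comparison and 48.0% in the TN comparison. Differences between replicates of the same group correlated with GC content across the 38 genes, which share libraries and are not independent, in some pairs and not in others. DMSO replicate 2 minus replicate 1 of OA correlated with GC content at r = 0.785, OA replicate 2 minus replicate 1 at r = 0.58, and TN replicate 2 minus replicate 1 at r = -0.69, but replicate 3 minus replicate 2 at r = -0.139 in the DMSO libraries of TN and at r = 0.082 in the TN libraries. Over all genes the correlation of gene deviation and GC content was -0.62, 0.56 and -0.066 in the DMSO replicates of OA and -0.57, 0.45 and 0.030 in the OA replicates, and -0.29 and -0.42 in DMSO replicates 2 and 3 and 0.45 in DMSO replicate 1 of TN, beside -0.51, -0.55 and 0.65 in the same TN replicates. Same-numbered libraries had the same sign except for replicate 3 of OA, where both values were close to 0.

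The summed RNA level of the genes of each role was also taken. With OA the summed CPM of the resection and joint molecule genes was 23.1% of the DMSO mean, that of the factors of strand invasion 31.7%, of the BRCA complex 44.2%, of the Fanconi ID genes 44.3%, of the paralogues RAD51B, RAD51C, RAD51D, XRCC2 and XRCC3 45.0%, of the mismatch repair genes 47.3%, of the Fanconi core 57.9% and of the checkpoint kinases 60%, which include ATM. With TN the same sums were 21.5%, 27.3%, 35.4%, 34.9%, 41.5%, 48.2%, 51.3% and 58.2%. POLQ, alone in its role, was at 28.4% with OA and 30.3% with TN. These are descriptions of sums in which the most abundant genes weigh most, and the order of the roles was not tested.

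CDH1, the epithelial cadherin, was the marker gene called higher in both comparisons, at 1.81 ± 0.31 (SE, n = 3 against 3) with OA and 1.69 ± 0.21 with TN on the log2 scale in edgeR.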
